A study of Mus musculus with 6 samples.

Results

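The genes described here are 37 integrin subunits and cell adhesion molecules, chosen by name as a functional group: 22 integrin subunits, 8 immunoglobulin superfamily and junctional adhesion molecules, 4 cadherins, the mucin Selplg, the hyaluronan receptor Cd44 and the Slit receptor Robo4. They were measured on 6 one-colour mouse expression arrays of macrophages grown from bone marrow, in a study that set mice lacking Bach1 (KO) against wild-type (WT) mice in connection with heme and iron homeostasis. Of the 37 genes, 36 had a named probe and 30 had one whose signal was marked well above background on 3 or more of the 6 arrays, out of 15736 genes that met the same requirement. All mice were C57BL/6 and 11 weeks of age, with 2 labelled male and 1 female in each genotype, and each array came from a separate mouse. WT and KO marrow was cultured alike, for 5 days at 37 °C and 5% CO2 in RPMI with 10 ng/mL GM-CSF, the cytokine that drove differentiation, and 10% fetal bovine serum. The mice are called WT 1, 2 and 3 and KO 947, 948 and 949 after their labels, and WT 3 and KO 949 are the females. The labels do not say how the Bach1 allele was made or whether every cell carried it.

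Integrins are heterodimers of an α and a β subunit that tie the cytoskeleton to matrix or to counter-receptors on other cells, and they switch between low and high affinity when talin and kindlin bind the β tail. Macrophages and dendritic cells carry β2 integrins, of which αMβ2 (Itgam and Itgb2, CD11b and CD18) and αXβ2 (Itgax and Itgb2, CD11c and CD18) are standard surface markers of myeloid cells. Their counter-receptors belong to the immunoglobulin superfamily: Icam1 and Icam2 are bound by β2 integrins, and Vcam1 by α4 integrins. Bach1 is a heme-sensitive repressor that pairs with small Maf proteins and binds Maf recognition elements in DNA.

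Levels are log2 signals of a probe from which the 75th percentile of its array was taken off, so 0 is that percentile and 1 unit is a doubling. Differences are KO minus WT on the same scale. A level compares arrays for 1 probe and does not rank genes against each other. Between 70.3% and 73.2% of spots were well above background on the WT arrays and 62.5% to 65.1% on the KO arrays, and no spot was saturated. The lowest level well above background lay between -6.16 and -5.68 on the 6 arrays. Slide 1 carried WT 1, 2 and 3 with KO 947 and slide 2 carried KO 948 with KO 949, so a fit with the slide as a block compares KO 947 alone with the WT mice. The targeted gene Bach1 read 2.21, 2.48 and 2.59 in WT 1, 2 and 3 against 1.45, 2.00 and 2.23 in KO 947, 948 and 949 (difference -0.54 ± 0.24, SE, n = 3 mice per genotype, limma adjusted p = 0.262). The labels do not place its probe relative to the deletion, so the reading does not check the genotypes.

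Bach1 acts through DNA elements near its targets, so the promoters of the members were set beside the values. A RefSeq table (GRCm38.p6) held the promoters of 20 of the 37 genes, and the 250 bases before the start site were searched on both strands. Shown are Robo4, which was lower in KO, and Itgam and Itgax, the myeloid α subunits, whose genes lie on chromosome 7. Promoters of Vcam1 and Icam2, which also differed between genotypes, are not shown, and no statement is made on their elements. Capitals mark the matches found, and each is written 5′ to 3′ on the strand of the gene.
Robo4, chr9:37401722-37401971, plus strand: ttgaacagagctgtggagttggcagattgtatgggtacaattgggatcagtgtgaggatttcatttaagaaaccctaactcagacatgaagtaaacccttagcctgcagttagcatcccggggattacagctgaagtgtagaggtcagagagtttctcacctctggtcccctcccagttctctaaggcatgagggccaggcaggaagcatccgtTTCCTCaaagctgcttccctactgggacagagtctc
Itgam, chr7:128062390-128062639, plus strand: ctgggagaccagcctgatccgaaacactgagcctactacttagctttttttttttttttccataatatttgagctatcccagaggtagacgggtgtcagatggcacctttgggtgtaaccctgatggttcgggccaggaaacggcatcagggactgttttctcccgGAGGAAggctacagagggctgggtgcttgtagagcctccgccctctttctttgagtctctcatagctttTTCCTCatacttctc
Itgax, chr7:128129300-128129549, plus strand: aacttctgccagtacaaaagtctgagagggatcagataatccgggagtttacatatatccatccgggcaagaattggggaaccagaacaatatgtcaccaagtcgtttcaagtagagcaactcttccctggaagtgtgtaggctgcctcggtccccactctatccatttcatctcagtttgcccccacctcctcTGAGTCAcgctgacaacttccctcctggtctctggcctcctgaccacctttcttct
The core TGANTCA of the Maf recognition element stood in 2 of the 20 members (Itgax and F11r) and in 6.75% of 32851 mouse promoters of the same length. In Itgax it reads TGAGTCA and begins at base -56 from the start site. The antioxidant response element core TGACNNNGC, which can overlap a Maf recognition element, stood in 2 members (Itga9 and Itgb1) and in 10.2% of promoters. The core GAGGAA of the myeloid factor PU.1 stood in 10 of the 20 members and in 23.3% of promoters. In Robo4 it begins at base -36 on the opposite strand, and in Itgam at base -84 and, on the opposite strand, at base -15. A match is a description of letters and does not show that a factor bound there.

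The question put to these genes was which of them differed between WT and KO macrophages. Of the 30 measured, 3 passed the limma test at an adjusted p under 0.05: Vcam1 and Robo4 fell and Icam2 rose in KO, and the other 27 did not pass. That is 10.0% of the members, beside 3.41% of all genes tested (537 of 15736), of which 1.14% were higher and 2.27% lower. The members were chosen with earlier results of these data known, so these shares are no test of the group. On an unadjusted p under 0.05 the members (6 of 30) and all genes (20.4%) stood close together. The arrays of the 2 genotypes did not overlap for 11 of the 30 members, against 26.9% of all genes. Of those 11, 4 were higher in KO (Icam2, Itga6, Itgam and Cd44) and 7 lower (Vcam1, Robo4, Itgal, Itgax, Itgb3, Itga7 and Cdh1). The median difference was -0.02 over the members and -0.01 over all genes. Scaling each array to its median in place of its 75th percentile raised the median of all genes to 0.21 and that of the members to 0.20, and turned the calls over all genes from 180 higher and 357 lower to 384 higher and 230 lower. The same 3 members passed under that scaling.

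**Figure D1:**
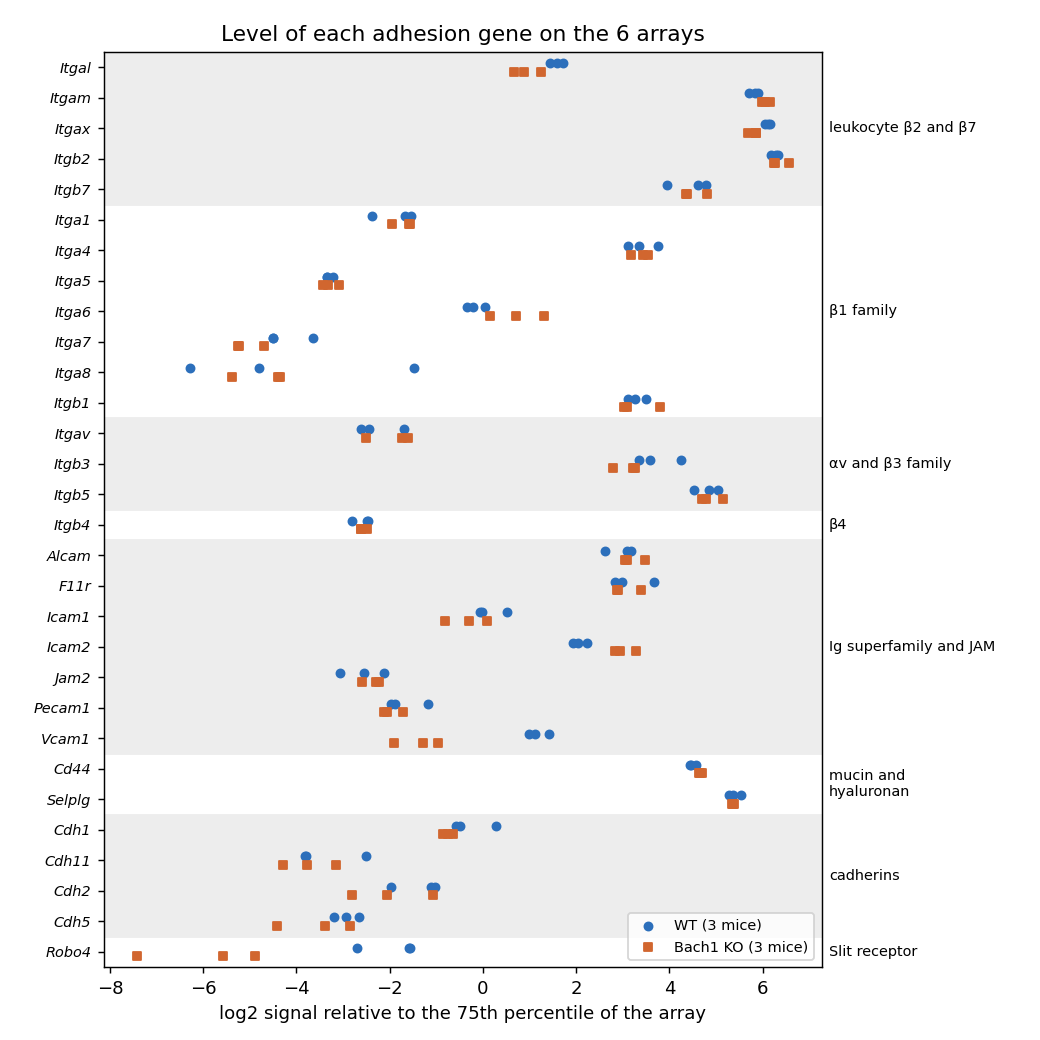
The 30 measured adhesion genes by role, with the level (log2 signal over the array's 75th percentile) on the x axis. Each circle is a WT mouse and each square a Bach1 KO mouse, 3 per genotype. For Vcam1 and Icam2 the gap between genotypes is wider than the range within either, for Robo4 the KO mice span a wider range than the gap, and 19 genes overlap.

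Vcam1, the endothelial, stromal and macrophage ligand of α4β1 and α4β7 integrins, fell by 2.56 on the log2 scale. It read 1.12, 0.99 and 1.41 in WT 1, 2 and 3 against -0.96, -1.28 and -1.91 in KO 947, 948 and 949. All 3 KO mice lay below all WT mice, and the gap between them was wider than the range within either genotype. The difference was -2.56 ± 0.27 (SE, n = 3 per genotype, limma adjusted p = 0.0103), a 5.89-fold lower signal with a 95% interval of -3.19 to -1.93. A second, dimmer Vcam1 probe read -4.17, -3.56 and -3.53 in WT against -7.58, -4.83 and -7.00 in KO, well above background on 1 of the 3 KO arrays. Its difference of -2.71 had the same direction but did not pass when every named probe was tested on its own (adjusted p = 0.0917; 2.58% of 20214 probes passed). The slide block gave a Vcam1 difference of -2.14 (adjusted p = 0.0583), and without WT 1 it was -2.59 (adjusted p = 0.0512), so neither fit kept the call. In RNA from a whole culture, fewer cells of a type and less RNA per cell cannot be told apart.

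Robo4, a roundabout family receptor best known from endothelium, had the widest difference of the measured members. It read -1.56, -2.70 and -1.59 in WT 1, 2 and 3 against -4.88, -5.58 and -7.43 in KO 947, 948 and 949. Every WT array was well above background, whereas KO 947 was the only KO array that was, so the KO mean rests partly on signal near or under background. The WT arrays alone were enough to meet the background requirement. The adjusted p of Robo4 therefore rests partly on KO signal not well above background and is no further support for the fall. The fitted difference was -4.01 ± 0.66 (SE, n = 3 per genotype, limma adjusted p = 0.0331), with a 95% interval of -5.59 to -2.44. After normexp background correction it was -2.19 (adjusted p = 0.0135), the smallest size of any setting tried. Requiring signal well above background on all 6 arrays dropped Robo4 from the fit. Of the 17 alternative settings that fitted it, 8 kept the call. Robo4 no longer passed once the slide was a fixed block (-2.93) or a random block (-3.65, adjusted p = 0.0623), nor without the filter on dim probes. It also did not pass without WT 1, WT 2, WT 3 or KO 948 (adjusted p = 0.124, 0.0705, 0.0886 and 0.0861).

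Icam2, a constitutive ligand of β2 integrins on endothelium, platelets and leukocytes, was the 1 member that rose. It read 2.23, 1.94 and 2.05 in WT 1, 2 and 3 against 2.83, 2.95 and 3.29 in KO 947, 948 and 949. The lowest KO mouse lay above the highest WT mouse. The difference was 0.95 ± 0.18 (SE, n = 3 per genotype, limma adjusted p = 0.0442), a 1.93-fold higher signal with a 95% interval of 0.53 to 1.38. The call lay close to the threshold, and 6 of 18 alternative settings kept it. It was lost with the slide as a fixed block (0.76) or as a random block (0.89, limma adjusted p = 0.0812). Quantile normalization also lost it (0.86, adjusted p = 0.0670), as did sex as a covariate and the fit without the filter on dim probes. Leaving out WT 1, WT 2, WT 3, KO 948 or KO 949 lost it too (adjusted p from 0.106 to 0.134). KO 949, a female on slide 2, was the most extreme KO mouse for Vcam1, Robo4 and Icam2. KO 947, a male on the slide of the WT mice, lay closest to WT for each of them. The cause of that order was not tested. In the males alone the differences were -2.18 for Vcam1 (adjusted p = 0.0240), -3.10 for Robo4 (0.0589) and 0.80 for Icam2 (0.207).

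**Figure D2:**
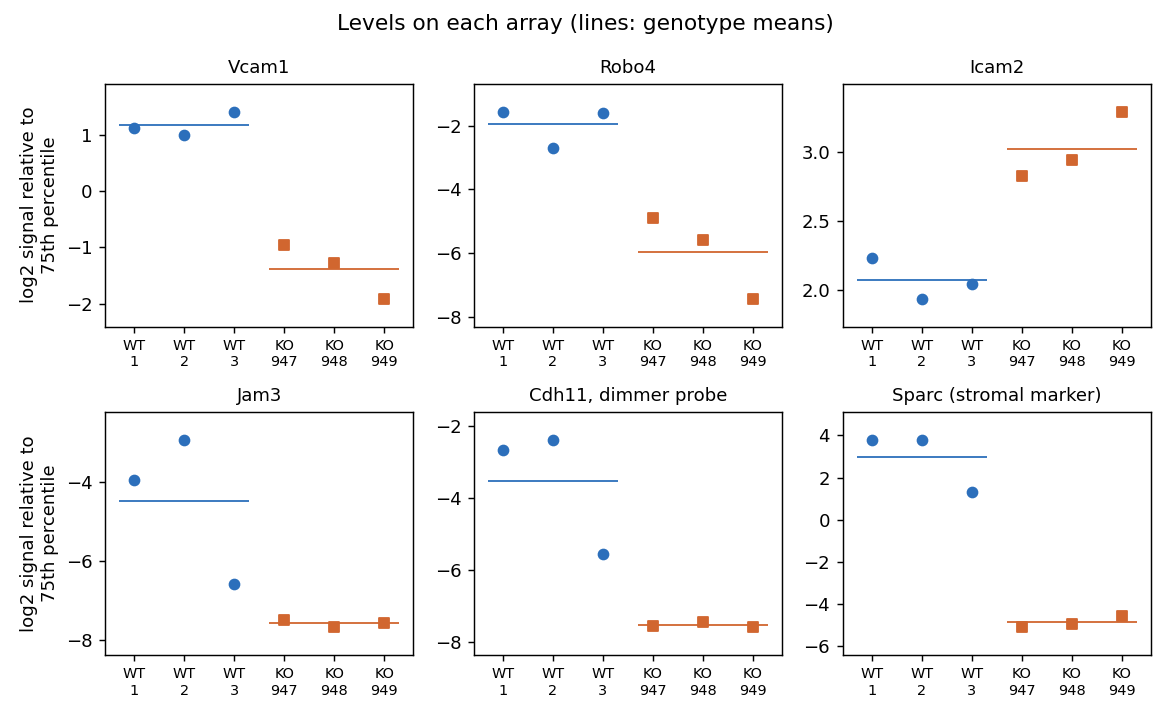
Levels of 5 adhesion probes and the stromal marker Sparc on each array, as log2 signal over the array's 75th percentile, with the mean of each genotype as a line and a separate y range in each panel. Vcam1 is highest in WT 3, whereas Jam3, the dimmer Cdh11 probe and Sparc are lowest in WT 3 among the WT mice. Not all stromal markers share the order of Sparc.

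The other immunoglobulin superfamily and junctional genes did not pass. Icam1, the inducible β2 integrin ligand, read -0.05, -0.02 and 0.52 in WT against 0.09, -0.30 and -0.82 in KO, and the genotypes overlapped (difference -0.49 ± 0.28, SE, limma adjusted p = 0.373; -0.06 against the WT mice for KO 947 on the shared slide). Pecam1, a homophilic adhesion molecule of platelets, endothelium and leukocytes, differed by -0.29 ± 0.25 with a 95% interval of -0.89 to 0.32. Alcam, the CD6 ligand, differed by 0.24 ± 0.21, F11r (junctional adhesion molecule A) by -0.11 ± 0.27, and Jam2 by 0.20 ± 0.26. F11r turned positive with the slide as a block (0.24) and under scaling to the array median (0.11). Jam3, a junctional molecule bound by αMβ2, was not tested because it was well above background on WT 1 and WT 2 alone. It read -3.95, -2.92 and -6.58 in WT 1, 2 and 3 against -7.50, -7.67 and -7.57 in KO. No KO array was above background, which gives a mean signal at least 2.78-fold lower in KO. That bound rests on WT 1 and WT 2, because WT 3 was itself not above background.

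Among the 6 leukocyte integrins of the β2 and β7 families, 5 were measured and none passed. Itgb2, the shared β2 subunit CD18, read 6.29, 6.33 and 6.17 in WT against 6.57, 6.26 and 6.25 in KO, with a difference of 0.09 ± 0.15 (SE, limma adjusted p = 0.775). Its 95% interval of -0.27 to 0.46 excludes a 2-fold difference either way. Its α partners did not all lie on 1 side.

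Itgam, CD11b, read 5.90, 5.83 and 5.71 in WT against 6.16, 6.05 and 5.99 in KO. The KO mice lay just above the WT mice, with a difference of 0.25 ± 0.14 (SE, limma adjusted p = 0.361). Its other probes were not of 1 direction: one differed by 0.55 and another by -0.73, each without overlap between genotypes, so the gene level depends on the probe. Itgax, CD11c, read 6.15, 6.06 and 6.12 in WT against 5.87, 5.68 and 5.86 in KO, each KO mouse below each WT mouse. The difference was -0.31 ± 0.14 (SE, limma adjusted p = 0.267) and shrank to -0.09 under scaling to the array median.

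Itgal, CD11a, the α subunit of the lymphocyte function antigen, read 1.59, 1.45 and 1.71 in WT against 1.25, 0.68 and 0.89 in KO. All KO mice lay below the WT mice, by -0.64 ± 0.19 (SE, limma adjusted p = 0.126), the lowest adjusted p of the 27 members that did not pass. A second Itgal probe gave -0.67 without overlap. With the slide as a block the difference of the first probe was -0.33. Itgb7, which pairs with α4 and αE, differed by 0.06 ± 0.26. Its αE partner Itgae had no named probe and was not analysed here.

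The β1 integrins and their α subunits, receptors for collagen, laminin, fibronectin and Vcam1, held 10 genes, of which 7 were measured and none passed. Itgb1, the common β1 subunit, differed by 0.02 ± 0.24 with a 95% interval of -0.56 to 0.59, and by 0.50 with the slide as a block. Itga4, the α subunit of the Vcam1 receptors, read 3.34, 3.11 and 3.75 in WT against 3.19, 3.44 and 3.54 in KO, a difference of -0.01 ± 0.21 (95% interval -0.51 to 0.48, limma adjusted p = 0.984). The interval of Itga4 excludes a 2-fold difference, whereas its ligand Vcam1 fell 5.89-fold.

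Itga6, a laminin receptor subunit, read -0.21, -0.35 and 0.03 in WT against 0.16, 0.71 and 1.31 in KO. The KO mice lay above the WT mice but spread widely among themselves, and the difference of 0.90 ± 0.30 did not pass (SE, limma adjusted p = 0.156). It passed without KO 947 (1.18, adjusted p = 0.0489), and it was 0.33 with the slide as a block. Itga7, another laminin receptor subunit, read -3.64, -4.51 and -4.50 in WT against -4.71, -5.25 and -5.22 in KO, a difference of -0.84 ± 0.29 (SE, limma adjusted p = 0.167).

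The fibronectin receptor subunit Itga5 differed by 0.03 ± 0.15 and the collagen receptor subunit Itga1 by 0.16 ± 0.26. Itga8, which pairs with β1, read -1.49, -4.80 and -6.28 in WT against -4.36, -4.40 and -5.38 in KO and was well above background on 2 arrays of each genotype. WT 1 alone was high, and the difference of -0.52 ± 1.13 has an interval of -3.20 to 2.16, the widest of any member. Itga2, Itga3 and Itga9 had probes that were above background on too few arrays: 1 WT array for Itga2, 2 for Itga3 and none for Itga9, and no KO array for any of them.

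In the αv and β3 family, which binds vitronectin, fibrinogen and other ligands with an RGD motif, 3 of 5 genes were measured and none passed. Itgb3, the β subunit of platelet αIIbβ3 and of osteoclast αvβ3, read 3.35, 3.59 and 4.25 in WT against 3.23, 2.79 and 3.26 in KO. The difference of -0.64 ± 0.27 did not pass (SE, limma adjusted p = 0.247), and a second probe overlapped between genotypes at -0.27. Itgav differed by 0.31 ± 0.33 and Itgb5, its partner in uptake of dying cells, by 0.07 ± 0.20. Itga2b, the platelet αIIb subunit, was above background on 1 WT array, and Itgb8 on none. Itgb4, the hemidesmosome subunit that pairs with α6, differed by 0.01 ± 0.16.

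Selplg, the mucin ligand of P-selectin, read 5.53, 5.36 and 5.29 in WT against 5.40, 5.35 and 5.36 in KO, and its difference of -0.03 ± 0.14 has a 95% interval of -0.36 to 0.31. Cd44, the hyaluronan receptor, read 4.58, 4.45 and 4.45 in WT against 4.70, 4.66 and 4.63 in KO with its brightest probe. The KO mice lay just above the WT mice, with a difference of 0.17 ± 0.13 (SE, limma adjusted p = 0.527). The 4 Cd44 probes did not share a direction. One read 3.28, 2.93 and 3.44 in WT against 3.85, 3.95 and 4.17 in KO (0.77, adjusted p = 0.0891 with every probe tested on its own). Another was above background on all WT arrays and no KO array, with a signal at least 1.65-fold lower in KO (adjusted p = 0.0669). That probe met the background requirement through the WT arrays alone, so its adjusted p rests on KO signal not well above background. Cd44 is known for variable exons, and which exons these probes cover was not analysed here.

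**Figure D3:**
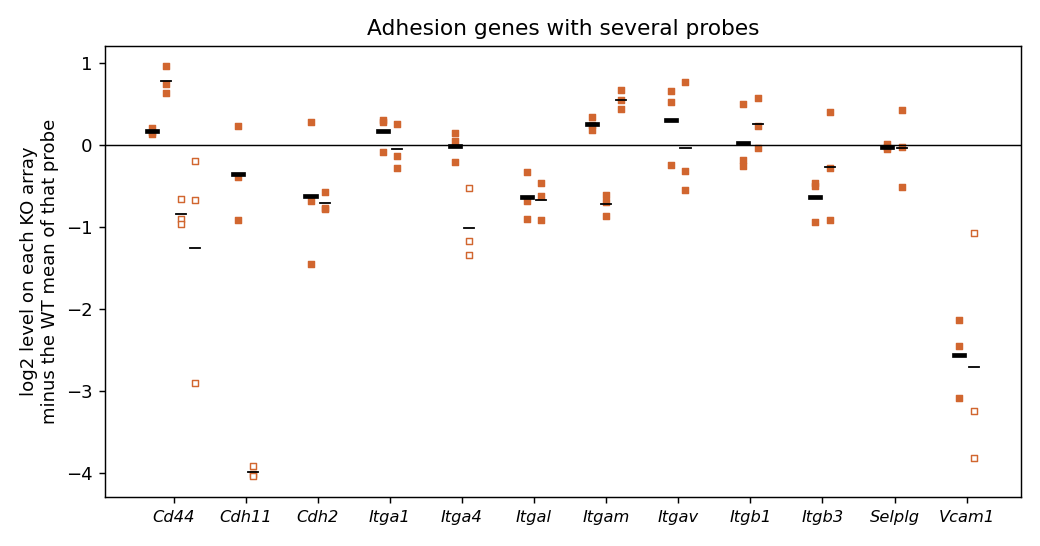
The 12 adhesion genes with more than 1 probe, showing the log2 level on each KO array minus the WT mean of the same probe. Thick bars are the mean of the probe used for the gene and thin bars those of its other probes. Filled squares mark probes well above background on all 6 arrays. Probes of Cd44 and Itgam lie on both sides of 0, and both Vcam1 probes lie below it.

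All 4 cadherins, which join cells through calcium-dependent contacts, had negative differences and none passed. The differences were -0.48 ± 0.25 for the epithelial Cdh1, -0.62 ± 0.47 for Cdh2, -0.62 ± 0.39 for the endothelial Cdh5 and -0.36 ± 0.44 for the mesenchymal Cdh11 (SE, limma adjusted p from 0.334 to 0.692). Cdh1 read -0.58, -0.50 and 0.27 in WT against -0.64, -0.86 and -0.75 in KO, just without overlap. For Cdh2, a second probe gave -0.71 without overlap. The dimmer Cdh11 probe read -2.66, -2.38 and -5.55 in WT 1, 2 and 3 against -7.55, -7.44 and -7.57 in KO. That probe was above background on 2 WT arrays and no KO array, so it was not tested. Its mean signal was at least 5.38-fold lower in KO, whereas the brighter Cdh11 probe overlapped between genotypes.

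**Figure D4:**
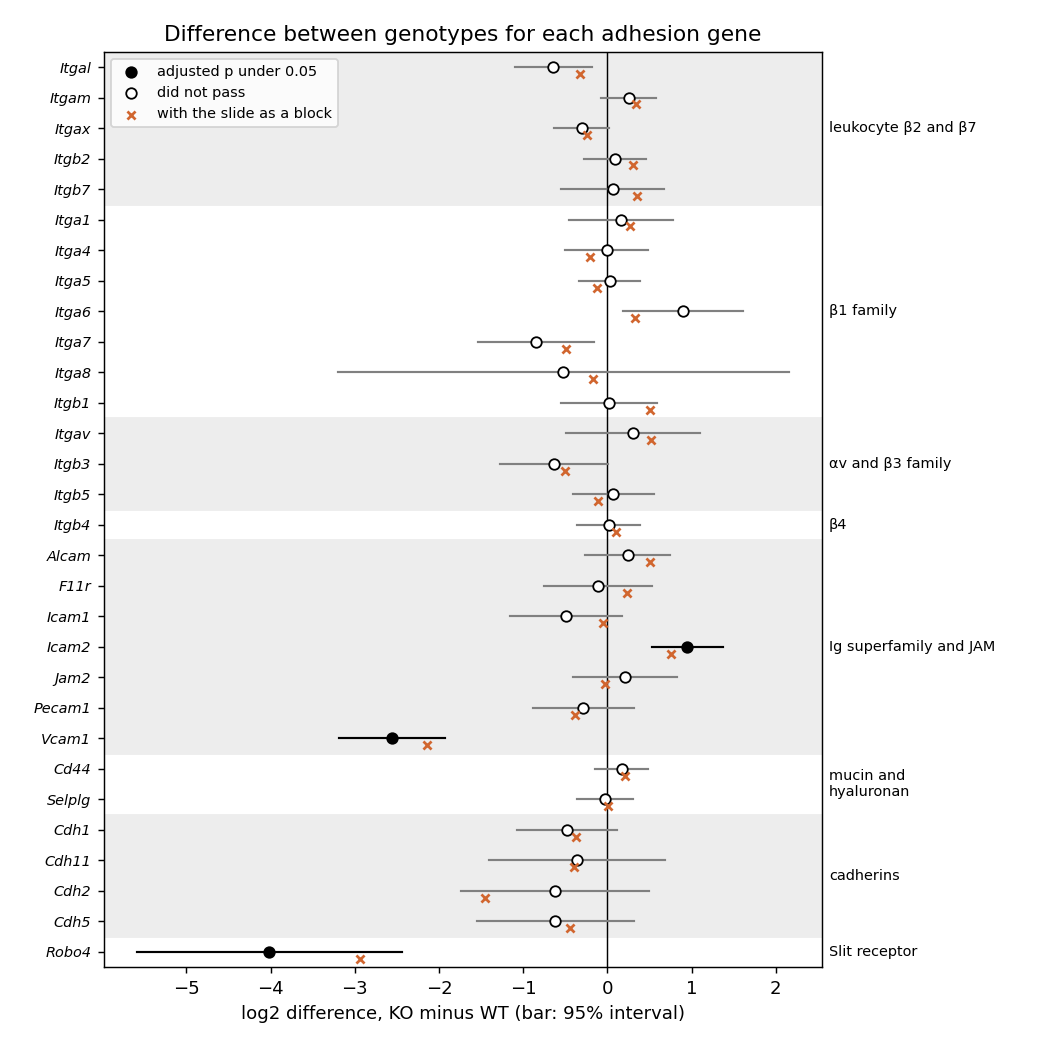
Log2 difference, KO minus WT, of each measured adhesion gene with its 95% interval, grouped by role. Filled circles passed the limma test at an adjusted p under 0.05 and crosses give the difference with the slide as a block. Vcam1 and Robo4 lie far below 0 and Icam2 above it, and 20 of the 30 genes lie within 0.5 of 0.

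The precision behind the genes that did not pass varied. The 95% intervals reached 0.31 to 2.68 to either side of the difference, with a median of 0.61, and for 16 members they excluded a 2-fold difference in both directions. In simulated data of the same size the test called 26.9% of genes changed 2-fold, 79.1% of those changed 4-fold and 89.4% of those changed 8-fold. It also called 10 unchanged genes. The simulated arrays had independent noise and no slide effect, so these rates need not hold for the real arrays. With the slide as a block none of the 30 members passed, and 84 of all genes did. The median difference of the members was then -0.08, with 13 positive and 17 negative.

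Several members are also expressed by cells other than macrophages, so marker lists of those cells were measured on the same arrays. Of the 11 macrophage markers measured, 1 rose, none fell and 10 did not pass, with a median difference of -0.19 and sums of linear level of 486 to 575 in WT and 453 to 503 in KO. The riser was the mannose receptor Mrc1 (1.07 ± 0.14, SE, limma adjusted p = 0.0170; 1.09 and 0.0756 with the slide in the fit). Its call was lost when WT 1, WT 2, KO 948 or KO 949 was left out (adjusted p from 0.0536 to 0.0713). The defining genes Adgre1 and Csf1r were above the 75th percentile on every array (5.77 to 6.12 and 6.59 to 7.01), with differences of 0.21 and -0.20, whereas the complement genes C1qa and C1qb differed by -1.29 and -0.62 and did not pass (adjusted p = 0.0604 and 0.148). Of the 11 stromal markers measured, 3 fell, and their summed linear level ran from 5.84 to 25.5 in WT and from 0.496 to 1.58 in KO, with Lum not above background anywhere. Sparc, a matricellular protein of stromal cells, read 3.78, 3.79 and 1.31 in WT 1, 2 and 3 against -5.09, -4.96 and -4.59 in KO. Jam3 and the dimmer Cdh11 probe, like Sparc, were lowest in WT 3 among the WT mice, whereas Vcam1 was highest there. The stromal markers did not share 1 order among the WT mice. Col1a1, Col1a2, Col3a1, Postn, Pdgfrb, Lox and Dcn were also lowest in WT 3. Thy1 and Fbln1 were highest in WT 3, as Vcam1 was, and Cxcl12 was lowest in WT 2. The part of stromal RNA in the Vcam1 and Cdh11 values was not tested.

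Of 14 endothelial markers, 7 were measured and none passed, and Tek, Tie1, Emcn and Erg were not above background on any array. Their summed level was 29.9 to 37.4 in WT and 26.8 to 31.4 in KO. Vwf, at 4.56 to 4.97, makes up most of that sum. Plvap had no value on KO 948, so the sum of that array, the lowest in KO, leaves Plvap out. The 7 differences were 3 positive and 4 negative, from -1.47 ± 0.69 for Esam to 0.98 ± 0.47 for Egfl7. The vascular growth factor receptor Kdr differed by 0.01. Of the 16 dendritic cell markers measured, 6 fell and none rose, with sums of 715 to 906 in WT and 520 to 571 in KO, and Xcr1 not above background. Most of these sums comes from H2-Eb1, H2-Ab1, Cd74 and Ccl17, with differences of -0.68 to -0.37. None of those genes passed (limma adjusted p from 0.0698 to 0.279). Itgax and the dendritic cell sums were both lower in KO, and the part of dendritic cells in the Itgax values was not tested. Mast cell, basophil and eosinophil markers summed to 26.5 to 56.4 in WT and 7.56 to 23.9 in KO (3 of 14 fell, Ms4a2 not above background). Among those that fell, Mcpt8 was above background on the WT arrays alone. Most of the sums of this list comes from Prg2 (-2.68) and Siglecf (0.47), which did not pass (limma adjusted p = 0.262 and 0.290). The sums therefore do not reflect the genes that fell. Granulocyte markers summed to 343 to 403 in WT and 261 to 298 in KO (1 of 15 fell). Megakaryocyte and platelet markers, the setting of Itga2b and Itgb3, summed to 160 to 231 in WT and 193 to 238 in KO, with none of 7 called and Gp1ba and Gp5 not above background. None of 8 T and NK cell, 6 B cell, 5 epithelial or 5 erythroid markers passed.

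The rest of the adhesion machinery was read from 4 related lists. Of 6 further integrin subunits 2 were measured, and 1 of them fell: Itgb2l, a β2-like subunit, read -1.32, -1.03 and -1.70 in WT against -3.77, -4.15 and -3.15 in KO (-2.34 ± 0.30, SE, limma adjusted p = 0.0157). Itgb2l no longer passed without WT 1 or WT 2 (adjusted p = 0.0718 and 0.0603). Of 37 measured genes of integrin activation and focal adhesions, 1 rose, none fell and 36 did not pass, with a median difference of 0.04 beside -0.01 over all genes. The riser was Rasgrp2, the exchange factor that activates Rap1 upstream of talin, at 1.48, 1.63 and 1.40 in WT against 2.20, 2.21 and 2.33 in KO (0.74 ± 0.14, adjusted p = 0.0451). It stayed past the threshold without KO 947 but not without any other single array (adjusted p from 0.0981 to 0.150).

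Among 31 measured integrin and selectin ligands, 1 rose and 1 fell, with a median of -0.13. Fn1, fibronectin, the ligand of α5β1 and α4β1, read 4.61, 4.35 and 3.53 in WT against 5.81, 5.88 and 6.15 in KO (1.78 ± 0.29, SE, limma adjusted p = 0.0318). Fn1 did not pass when WT 1, WT 2, KO 948 or KO 949 was left out (adjusted p from 0.0572 to 0.0973). Nid1, nidogen, a basement membrane protein, was above background on all WT arrays and no KO array, at least 15.1-fold lower in KO (adjusted p = 0.0169). Nid1 met the background requirement through the WT arrays alone. Its adjusted p therefore rests on KO signal not well above background and is no further support for the fall. Its call was lost without WT 1 or KO 948 (adjusted p = 0.0813 and 0.0615).

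Of 46 measured other adhesion receptors and junction genes, 4 fell, with a median of -0.20. Nectin1, a cell contact receptor, fell by 1.64 (limma adjusted p = 0.0112; 0.0528 without WT 1) and the tight junction gene Cldn1 fell by 1.33 (adjusted p = 0.0265), a call kept without KO 947 and lost without any other single array (0.0605 to 0.102). Jaml, a junctional adhesion molecule of leukocytes, read 3.93, 4.03 and 4.42 in WT against 3.16, 2.92 and 2.59 in KO (-1.24 ± 0.21, adjusted p = 0.0371), and kept the call only without KO 947 when 1 array was left out (otherwise 0.0846 to 0.117). Slit2, a ligand of the roundabout family, was above background on no KO array and at least 2.95-fold lower (adjusted p = 0.0481). The call held without WT 3 and was lost without any other single array (adjusted p from 0.0621 to 0.148). Slit2 met the background requirement through the WT arrays alone, so its call rests on KO signal not well above background. After normexp its difference was -0.44. None of the genes in these 4 lists passed when the slide was a block, and Nectin1 had an adjusted p of 0.0528.

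The authors' deposited table holds 3215 probes whose genotypes do not overlap in any case, so its entries are no independent evidence of a difference. It lists 9 probes of 7 members: Vcam1 with both probes, Cd44 with a pair, and Icam2, Itgal, Itgam, Itgax and Robo4 with 1 each. Its differences, from log2 values centred on the median of each probe, were -2.54 and -2.70 for Vcam1, -4.00 for Robo4 and 0.97 for Icam2 in the authors' deposited table.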

How the data were processed

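The deposited scanner files hold spot intensity values, with background subtracted and spatial trend removed by the authors' software per the file headers. Its release, Agilent Feature Extraction, is 10.7.3.1 in those headers and 9.1 in the submitters' processing notes. The log2 values of the authors' deposited table served as an alternative, with its scaling between arrays unknown. Probes were named through transcript accessions and a RefSeq gene table (26413 of 55681 probes; 29268 unnamed). The log2 processed signal was reduced by the log2 75th percentile of its array, outlier spots (0.196% to 0.386%) were dropped, and spots of a probe were averaged. A gene is its probe with the highest mean among those well above background on at least 3 of 6 arrays. Where no array of a genotype was above background, the fold is a bound against the higher of the measured value and the lowest level well above background on each array. Genotypes were compared with limma 3.58.1 in R 4.3.3 (lmFit, eBayes, two-sided, Benjamini-Hochberg over all genes, threshold 0.05). The fit was tested on simulated data. The slide was left out because with it KO 947 alone sets the contrast.

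The members and lists were chosen with earlier results of these data known. Named are all members, with values on each array for those past the threshold or without overlap; list genes past the threshold, up to 4 a list by smallest p; and marker list counts and sums. Other genes named were chosen after their values were seen. 1 gene of the related lists is not reported here.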

Additional observations from a re-analysis of the deposited data

How the results depend on the processing

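No paired analysis was possible because the genotypes share no replicate numbers. Of the 30 members, 3 passed in the analysis as reported, 1 without a filter on dim probes, 0 with the slide as a fixed block or within the slide with both genotypes, 1 with it as a random block, 1 in the arrays labelled male only, and 0 (without WT 1) to 4 (without KO 947) when 1 array was left out, with 1 without WT 2, WT 3 or KO 948. The 537 calls over all genes became 343 after quantile normalization, 275 without the filter, 84 with the slide as a fixed block, 255 as a random block, 24 within the slide with both genotypes, 305 with sex as a covariate, 182 in males only, 810 with eBayes trend and robust, 1151 at a threshold of 0.1, and 77 (without WT 1) to 900 (without KO 947), with 150, 283, 135 and 188 without WT 2, WT 3, KO 948 and KO 949. The members' median of -0.02 became 0.20 under scaling to the array median, -0.20 without the filter (36 genes), and -0.14 (without KO 947) to -0.011 (without WT 3). Vcam1, Robo4 and Icam2 kept their direction in every setting that fitted them. Among members that did not pass, 15 changed sign in at least 1 setting, none with a size over 0.52 as reported. Cd44 was -0.29 with the mean of its probes. In males only, Itga4 was 0.088, Itgav -0.049, Itgb5 -0.21 and F11r 0.24. With normexp, run on median spot signals, Itgb1 was -0.10, Itgb5 -0.0013 and Itgb7 -0.018, and with quantile normalization Itgb1 was -0.084. Under scaling to the array median, Itga4 was 0.21, Selplg 0.19 and F11r 0.11. With the slide as a fixed block, and within the slide with both genotypes, Itga5 was -0.12, Itgb5 -0.11, Selplg 0.0030, F11r 0.24 and Jam2 -0.029. With the slide as a random block Itga5 was -0.023 and F11r 0.010. Leaving out 1 array gave ranges of -0.10 to 0.33 for Itga1, -0.16 to 0.16 for Itga4, -0.070 to 0.10 for Itga5, -1.57 to 0.83 for Itga8, -0.22 to 0.16 for Itgb1, -0.010 to 0.15 for Itgb2, -0.10 to 0.076 for Itgb4, -0.070 to 0.19 for Itgb5, -0.19 to 0.23 for Itgb7, -0.080 to 0.044 for Selplg, -0.28 to 0.15 for F11r, -0.037 to 0.43 for Jam2 and -0.66 to 0.075 for Cdh11. Testing each probe on its own was chosen after seeing the data. Except where the setting itself tests fewer arrays or more probes, the cause was not tested. Signal near background limits Robo4, Jam3 and the dimmer probes.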
